A study of Mus musculus with 15 samples.

Results

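A set of 265 regions was called for p53 in mouse spleen or thymus but had no overlapping region in the liver list. They were taken from 3 lists of genomic regions, 1 per organ, that hold 4137 distinct regions in all. A region was included when the spleen list or the thymus list held it, entries with identical coordinates being counted once, and when it shared not even 1 bp with a region of the liver list. The 265 regions make up 6.41% of the distinct regions (exact 95% interval 5.68 to 7.20). Of these, 197 were in both the spleen and the thymus list and 68 were in 1 of them, 39 in spleen alone and 29 in thymus alone. They are set below beside the 1930 regions that all 3 lists hold. The regions were thus chosen by whether the authors' signal put them in a list, so their presence in spleen or thymus and their absence from liver are not findings, and their scores and widths are given as a description.

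The study carried out chromatin immunoprecipitation sequencing (ChIP-seq) for p53, in which an antibody recovers the DNA that a protein occupies and the DNA is sequenced. Its title concerns how the C-terminus of p53 acts on liver gene regulation and radiation resistance. The labels describe 15 libraries from wild-type mice. Each of liver, spleen and thymus has 2 libraries taken 3 h after 2 Gy of X-rays, 2 libraries without treatment and 1 input library of chromatin. All 5 libraries of an organ name the same list. The list names mention irradiation and IgG (nonspecific antibody), although no library is labelled IgG. No test of radiation or of the spread between mice was therefore possible, and the read depth behind the lists is unknown. A region list holds no expression values, so the organ labels could not be checked against marker levels. The organs are mixtures of cells, so a region bound in fewer cells cannot be told apart from one bound less strongly in each cell.

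p53 is a transcription factor that is stabilised when DNA is damaged. It binds as a tetramer to paired short DNA motifs, called half-sites, near genes that arrest the cell cycle, repair DNA or bring on apoptosis. Thymus holds mainly developing T cells and spleen holds B cells, T cells and myeloid cells. Lymphocytes of both organs are known to die readily after irradiation, whereas hepatocytes are comparatively resistant.

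Promoter overlap was counted for the 265 regions and was not tested. Annotated promoter windows, running from 250 bases before a transcription start to 50 after it (RefSeq sequences, GRCm38.p6, the assembly that mm10 names), overlapped 2 of them, both in spleen alone. Of such windows, 247 overlapped one of the 1930 regions in all 3 lists and 1040 a region of liver alone. These are counts of windows, from sets of regions of unlike size, and no share of regions overlapping a window was computed. A wider region has more room to reach a window, and the regions absent from liver were narrower than those in all 3 lists. The part of width was not tested. The 2 windows over regions absent from liver are printed because they are the only sequence used here that those regions cover. They run 5′ to 3′ on the strand of the gene, with the bases inside the p53 region in capitals.
Smurf1: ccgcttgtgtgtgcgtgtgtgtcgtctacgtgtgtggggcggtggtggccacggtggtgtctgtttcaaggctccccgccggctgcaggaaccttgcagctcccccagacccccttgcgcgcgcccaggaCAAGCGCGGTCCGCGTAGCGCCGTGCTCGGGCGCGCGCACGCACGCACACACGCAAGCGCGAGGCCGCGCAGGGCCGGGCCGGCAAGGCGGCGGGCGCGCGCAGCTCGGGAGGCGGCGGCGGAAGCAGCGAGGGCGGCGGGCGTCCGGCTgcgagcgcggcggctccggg
Sox4: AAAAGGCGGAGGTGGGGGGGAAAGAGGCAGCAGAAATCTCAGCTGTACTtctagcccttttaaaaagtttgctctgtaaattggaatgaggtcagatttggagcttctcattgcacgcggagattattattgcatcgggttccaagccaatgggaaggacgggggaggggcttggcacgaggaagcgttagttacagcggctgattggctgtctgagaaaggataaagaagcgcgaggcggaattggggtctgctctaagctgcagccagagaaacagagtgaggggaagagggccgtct
Smurf1 encodes a ubiquitin ligase of the BMP and TGF-beta pathways. Its window lies on the minus strand at chr5:144965781-144966080, and the region, at chr5:144965801-144965950, lies wholly within it, so that 150 bp are shared, at positions -120 to 29 from the start. The window had a GC content of 76.3% and 49 CpG dinucleotides, against medians of 52.7% and 7 over all 32851 windows. Sox4 encodes a transcription factor needed in early B-cell and T-cell development. Its window lies on the minus strand at chr13:28953650-28953949, and 49 bp of the region at chr13:28953901-28954050 fall in it, at positions -250 to -202 from the start. That window had a GC content of 52.0% and 12 CpG dinucleotides.

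Neither window held the p53 half-site consensus, or the letters CATG, in any position; both strands were searched and matches could overlap each other. Over all windows, 8.36% held the half-site consensus and 61.1% held CATG. Over the 247 windows that overlap a region of all 3 lists, the shares were 16.2% and 57.5%. The absence of a match says only that these letters are not in these windows. Both regions ranked low in the spleen list. The Smurf1 region stood at the 13.7 percentile by score and the Sox4 region at the 5.41 percentile.

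Each region carries the authors' own score, on a scale that the sources used here do not give. It is used here only as a rank percentile within a list, where 100 is the highest-scoring region. The regions absent from liver lay more often below than above the middle of both lymphoid lists. The 197 regions in both lists had a median percentile of 45.2 in spleen (range 0.154 to 97.6) and of 44.2 in thymus (range 0.707 to 98.9), against 58.0 and 55.9 for the regions of all 3 lists. The 39 regions of spleen alone had a median of 46.5 (range 1.498 to 92.0) and the 29 of thymus alone a median of 41.8 (range 0.333 to 91.3). The classes thus overlapped over nearly the whole scale. Above the 90 percentile of the spleen list lay 15 of the 236 regions that the spleen list holds (6.36%), and above that of the thymus list lay 8 of 226 (3.54%). For the regions of all 3 lists these shares were 12.6% and 12.02%.

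Ranks in the 2 lymphoid organs were nearly unrelated among the regions absent from liver that both lists hold. Among the 197 regions of both lists, 100 ranked higher in spleen and 97 ranked higher in thymus. Above 50 lay 75 of the 197 in spleen, 87 in thymus and 32 in both. Of the 1930 regions in all 3 lists, 1146 were above 50 in spleen, 1089 in thymus and 834 in both. Among the 197, 3 regions were above 75 in both organs and 0 were above 90 in both. For 28 of the 197 the percentiles lay more than 50 points apart. Counts above 75, above 90 and over 50 points apart were not made for the 1930. Across regions, Spearman's rho between spleen and thymus scores was 0.0124 for the 197 regions and 0.578 for the 1930. These are descriptions over regions that come from the same 2 lists and are not independent, and the choice of regions used the same signal.

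**Figure D1:**
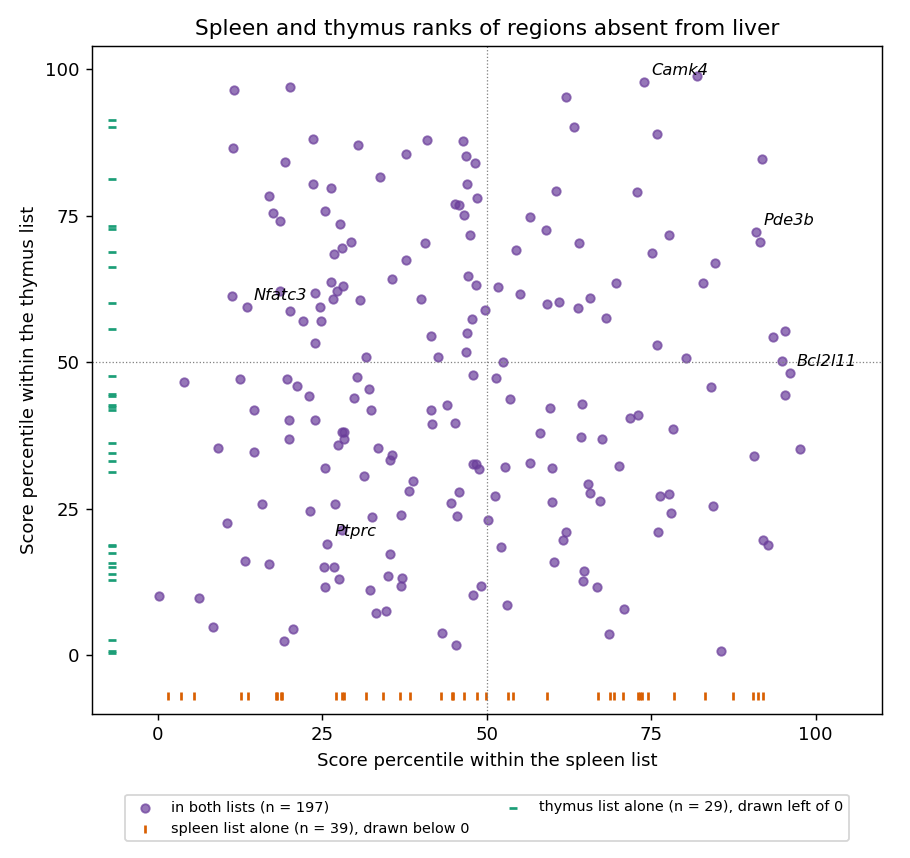
Score percentile in the spleen list (x axis) and in the thymus list (y axis) for the 197 regions absent from liver that both lists hold (circles), with dotted lines at 50. Ticks below 0 are the 39 regions of spleen alone and ticks left of 0 the 29 of thymus alone. The circles fill the square with no diagonal, and 32 lie above 50 on both axes.

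The highest combined rank belonged to a region far from any coding gene. It spans chr9:48107801-48108350, at 550 bp the widest of the 265, and stood at the 81.9 percentile in spleen and the 98.9 percentile in thymus. The nearest coding gene, Nxpe4, lies 53654 bp away and the nearest liver region 386850 bp away. The next region, chr16:93572101-93572550, stood at 91.8 in spleen and 84.7 in thymus, 10907 bp from Setd4, a SET-domain methyltransferase gene. A liver-list region lay only 2150 bp from it. Its percentiles were 83.2 in spleen, 76.2 in thymus and 14.5 in liver. This second region thus sits beside one that ranked high in both lymphoid organs and low in liver.

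Among the leading regions inside genes, those of Camk4, Pde3b, Ptpn21 and Sgms1 stood above the 50 percentile in both lists, as did those of Dscaml1, Cnot2 and Pcca. Camk4 encodes a calcium- and calmodulin-dependent kinase with known roles in T cells, and its region, chr18:32968901-32969250, stood at 73.8 in spleen and 97.8 in thymus. Pde3b encodes a phosphodiesterase that breaks down cyclic AMP, and its region, chr7:114466501-114466750, stood at 90.9 in spleen and 72.2 in thymus. No liver region lay within 805850 bp of the Camk4 region or within 1785250 bp of the Pde3b region. Ptpn21, a protein tyrosine phosphatase gene, held a region at 64.1 and 70.4, and Sgms1, which makes sphingomyelin, one at 75.1 and 68.6.

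Bcl2l11 was the apoptosis regulator with such a region. It encodes Bim, a BH3-only protein that is a main trigger of lymphocyte death in thymus and spleen. The region, chr2:128151701-128151950, lay inside the gene and stood at the 96.0 percentile in spleen and the 48.2 percentile in thymus. It was also among the closest to the liver list. A region 750 bp further on, chr2:128152701-128152850, was in all 3 lists, standing at 73.1 in spleen, at 5.28 in thymus and at 0.517 in liver. The gene itself was therefore not absent from the liver list, although its liver region was among the lowest in rank.

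Of the 20 regions of both lists with the highest mean percentile, 9 overlapped a coding gene and 10 were inside or within 5 kb of one. Cnot2, a subunit of the mRNA deadenylase complex, held one at 84.8 in spleen and 67.0 in thymus. Pcca, a mitochondrial carboxylase subunit, held one at 93.5 and 54.4, and Tbl1x, a subunit of a nuclear corepressor complex, one at 95.4 and 44.5. Dscaml1, a neural cell adhesion gene, held one at 63.3 and 90.2. The region beside Ms4a5, a member of the family of the B-cell antigen gene Ms4a1, lay 1206 bp outside the gene at 77.7 and 71.8. Regions near Rtl6 (25148 bp) and Zmiz2 (11249 bp) stood at 95.4 and 94.9 in spleen, against 55.3 and 50.2 in thymus. The region 59134 bp from Ptprn2 went the other way, at 62.0 in spleen and 95.4 in thymus.

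**Figure D2:**
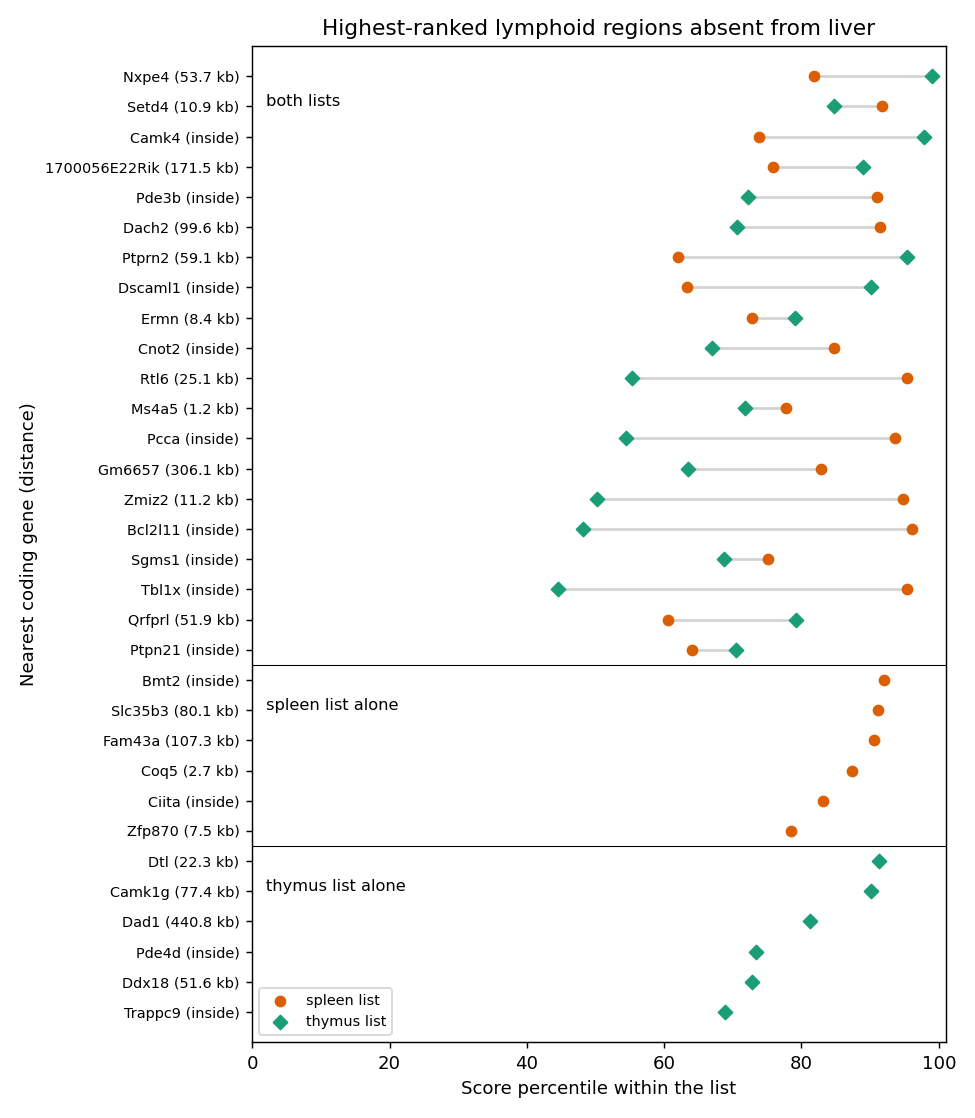
Score percentile (x axis) in the spleen list (circles) and thymus list (diamonds) for the 20 highest-ranked regions of both lists, by mean percentile, and the 6 highest of each list alone; the y axis names the nearest coding gene with its distance. Bcl2l11 stands at 96.0 in spleen and 48.2 in thymus, while Ptprn2 stands at 62.0 in spleen and 95.4 in thymus.

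Spleen alone held 39 regions, and Ciita stood out among their genes for its role. It encodes the master regulator of MHC class II genes and is active in B cells. The region, chr16:10517401-10517450, is 50 bp wide, lay inside the gene 1078.5 bp from its nearer end and stood at the 83.1 percentile. Bmt2, also known as Samtor, a sensor of the mTORC1 pathway, held the highest-ranked region of spleen alone, at the 92.0 percentile (chr6:13675901-13676250). A region at the 87.4 percentile lay 2716 bp from Coq5, an enzyme of ubiquinone synthesis, and 3880 bp from Rnf10. The other leading regions of spleen alone were outside coding genes, near Slc35b3 (91.2), Fam43a (90.5) and Zfp870 (78.5).

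Thymus alone held 29 regions. The highest stood at the 91.3 percentile, 22306 bp from Dtl, which encodes a substrate receptor of a ubiquitin ligase of the DNA damage response (chr1:191514901-191515050). The next, 77446 bp from the kinase gene Camk1g, stood at 90.2. Pde4d, a further cyclic AMP phosphodiesterase gene, held a region at 73.3 and Trappc9, a vesicle tethering gene, one at 68.9. A region at 72.7 lay 51621 bp from Ddx18.

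Antigen receptor loci held 4 of the 265 regions, of 8 regions of any list there, noticed after the values were seen and given with no test. A region of thymus alone, chr14:53794601-53794650, at the 81.2 percentile, lay in the alpha chain locus 805 bp from the segment Trav13-5. In the beta chain locus, chr6:41553101-41553350 was in thymus alone at 36.3, with Trbc2 and Trbv31 within 5 kb. Next to it, chr6:41558301-41558550 overlapped Trbv31 and was in both lists, at 46.9 in spleen and 55.1 in thymus. In the immunoglobulin kappa locus, chr6:68815901-68816050 was in spleen alone at 68.7, and a region of all 3 lists lay 3550 bp from it. Of all 4137 regions, 5 lay within 5 kb of any of the 686 annotated antigen receptor gene segments. The other two, beside Trav15-1-dv6-1 and Igkv4-90, were in all 3 lists. The one beside Igkv4-90 is the neighbour of the kappa region of spleen alone.

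The regions were narrow. Of the 265 regions, 125 (47.2%) were 50 bp wide, 97 (36.6%) were 150 bp, 31 (11.7%) were 250 bp and 12 (4.53%) were wider. Among the regions of all 3 lists the shares were 13.9%, 26.4%, 26.9% and 32.8%. Regions in both lymphoid lists had a median width of 150 bp and those in 1 list 50 bp, against 250 bp for the regions of all 3 lists. The 3872 liver regions and the 265 make up all 4137 distinct regions, so every lymphoid region overlapping a liver region had its exact coordinates. A width may therefore not reflect the signal of 1 organ alone, and this was not tested.

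**Figure D3:**
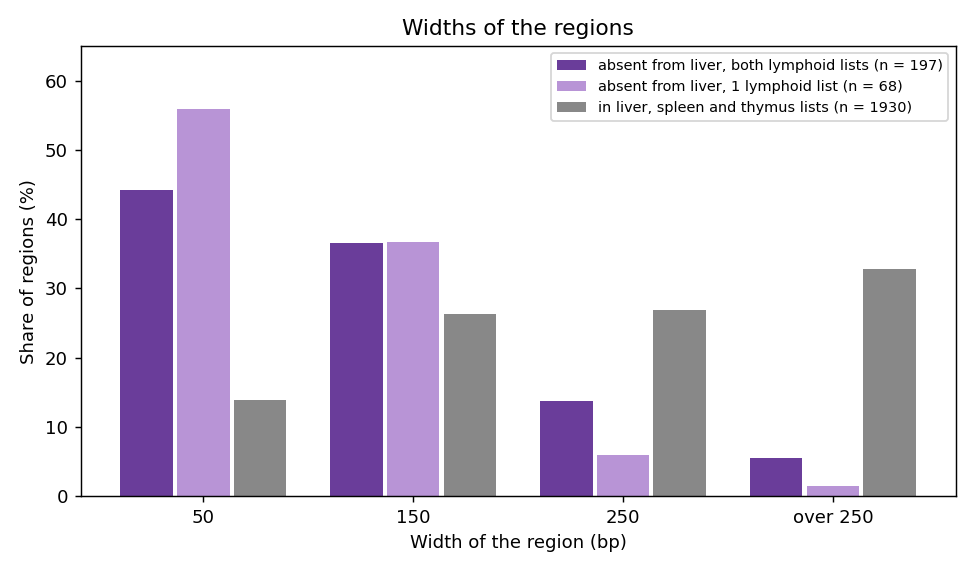
Share of regions (y axis, percent) by width in bp (x axis) for regions absent from liver in both lymphoid lists, those in 1 lymphoid list and regions of all 3 lists. The widest class holds 4.53% of the 265 regions absent from liver and 32.8% of the regions in all 3 lists.

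The gap to the nearest liver region was 550 bp at the least and 105250 bp at the median. The gap to the nearest other region of any list had a median of 92750 bp for the 265 regions and of 103150 bp for the regions of all 3 lists. The gap to the nearest liver region was under 1 kb for 2 regions and under 10 kb for 21 (7.92%). It was under 100 kb for 127 (47.9%) and under 1000 kb for 252 (95.1%). The smallest gap was at chr10:7483501-7483550, 9860 bp from Ulbp1, a ligand gene of the NKG2D receptor, with percentiles of 41.5 in spleen and 41.9 in thymus. Of the 21 with a liver region under 10 kb away, that liver region was in all 3 lists for 13, in liver alone for 7 and in liver and spleen for 1. Just outside the rule, the 5 regions of all 3 lists with the lowest liver scores, 7.06 to 7.12, had spleen percentiles of 20.97 to 94.5 and thymus percentiles of 31.1 to 78.2. Just inside it, the 5 regions with the lowest mean percentile over the lymphoid lists that hold them had percentiles of 0.333 to 3.49. All 5 were in 1 list, where that mean is a single rank. The lowest lay in Ccnd3, the D-type cyclin gene of lymphoid cells, in thymus alone. The others were at Sfi1, Bsg, Epc1 and Igf1r. Regions in both lists could rank as low in 1 of them, as at chr12:86811001-86811050 (0.154 in spleen, 10.1 in thymus).

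**Figure D4:**
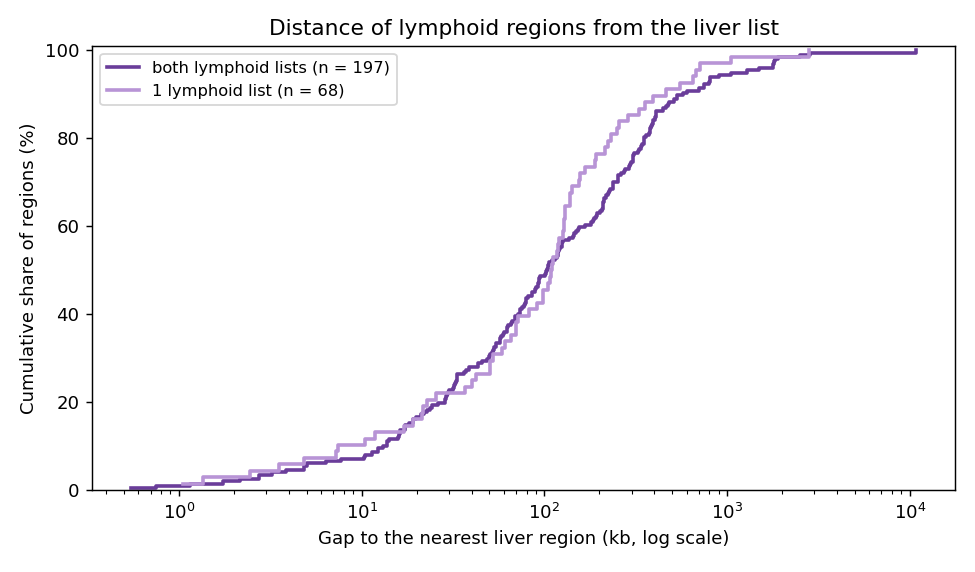
Cumulative share of regions (y axis, percent) by gap to the nearest liver region (x axis, kb, log scale) for the 197 regions in both lymphoid lists and the 68 in 1. At 100 kb the curves stand at 48.7% and 45.6%, and 21 of the 265 regions have a gap under 10 kb.

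Position relative to genes was not used to choose the regions. Regions with a midpoint no more than 1 kb from the start or end of any annotated gene were counted as gene-end regions. Of the 265 regions, 24 (9.06%, exact 95% interval 5.89 to 13.2) were at a gene end, 146 (55.1%) inside a gene away from its ends and 95 (35.8%) outside genes. Of the 1930 regions in all 3 lists, 366 (19.0%) were at a gene end, 781 (40.5%) inside a gene and 783 (40.6%) outside. The share over all distinct regions, liver included, was 45.2%. Regions absent from liver were less often at a gene end than regions of all 3 lists (odds ratio 0.426, 95% interval 0.263 to 0.661, two-sided Fisher's exact p = 3.42e-05, adjusted p = 0.000103 over 3 tests). The call was lost among regions at most 150 bp wide, a setting chosen after the data were seen (9.91% of 222 against 15.8% of 778, odds ratio 0.586, Fisher's exact p = 0.0303, adjusted p = 0.0909). Median widths were 150 bp and 250 bp in the groups compared, and beyond this setting the part of width in the result was not tested.

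Distances to annotated transcription starts, known for 254 of the regions and described only, had a median of 23157.5 bp, against 18212.5 bp for 1870 regions of all 3 lists. Within 1 kb of a start were 12 (4.72%), against 244 (13.0%).

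The 2 classes of region absent from liver were not shown to differ in position. Of the 197 in both lymphoid lists 14 (7.11%) were at a gene end, and of the 68 in 1 list 10 (14.7%) were (odds ratio 0.444, 95% interval 0.173 to 1.18, two-sided Fisher's exact p = 0.0836, adjusted p = 0.125). The direction turned among regions above the 50 percentile in at least 1 lymphoid list (8.46% of 130 against 3.85% of 26, Fisher's exact p = 0.692). Regions in both lists could enter that subset through either list, and those in 1 list through that list only. Another listed region lay within 10 kb of 29 of the 265 regions (10.9%) and of 236 of the 1930 (12.2%), beside 12.1% of all distinct regions (odds ratio 0.882, 95% interval 0.565 to 1.34, two-sided Fisher's exact p = 0.615). That interval includes both a lower and a higher share.

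**Figure D5:**
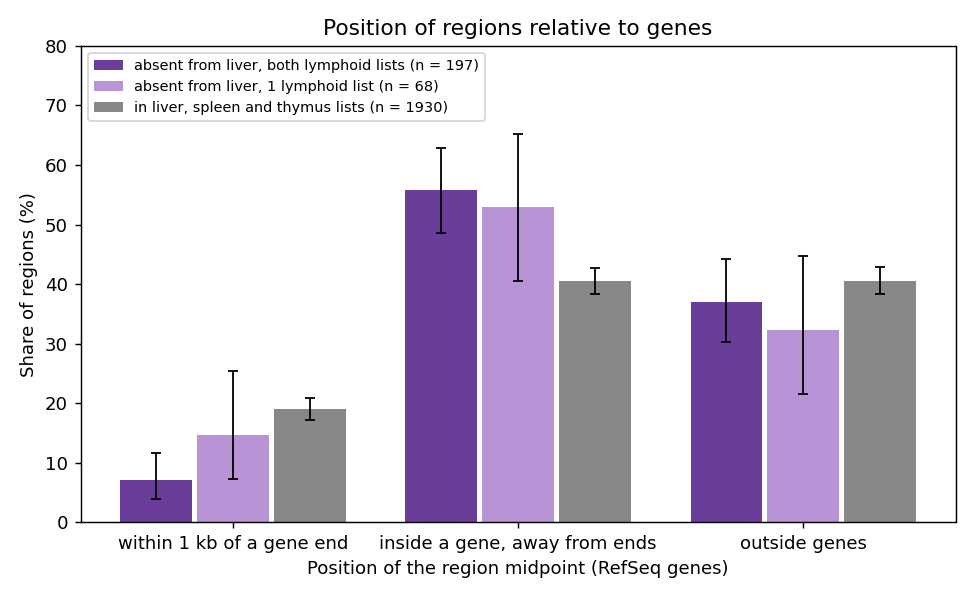
Share of regions (y axis, percent, with exact 95% intervals) within 1 kb of a gene end, inside a gene and outside genes (x axis) for regions absent from liver in both lymphoid lists, those in 1 lymphoid list and regions of all 3 lists. At gene ends the shares are 7.11%, 14.7% and 19.0%.

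Of the 10 gene-end regions with the highest mean percentile, 4 had a coding gene within 5 kb. The coding genes were Zc3h12a and Meaf6, which share 1 region (51.4 in spleen, 47.3 in thymus), Zfp280d (26.8 and 68.4), Myo10 (42.6 and 50.9) and the predicted gene Gm9949 (75.9 and 52.97). Zc3h12a encodes Regnase-1, an RNase that degrades inflammatory mRNAs in lymphocytes and macrophages, and Myo10 an unconventional myosin. A region at 54.5 in spleen and 69.2 in thymus lay 6132 bp from Tet1, at the ends of noncoding genes.

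Of 21887 coding genes, 164 (0.749%) had one of the regions inside them or within 5 kb. They were long genes, with a median length of 87.8 kb against 17.2 kb for all coding genes. Of the 164, 64 (39.0%) also had a liver-list region within 5 kb, against 15.2% of all coding genes, so many of these genes had another region in the liver list. The genes were not matched for length, and a longer gene has more room for any region. The part of gene length in this difference was not tested. Of the 265 regions, 154 were inside or within 5 kb of a coding gene, and 13 of these were near 2 or more, where the gene a region belongs to cannot be told.

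Gene lists are read against the share of 0.749% of all coding genes, at which lists as short as these would hold few or no such genes. Of 66 p53 targets, 0 had one of the 265 regions within 5 kb, which is near that share, while 38 had a spleen or thymus region of some kind and 42 a liver region. The lymphoid regions at those targets were therefore all shared with liver. Apoptosis regulators had 1 of 36 (Bcl2l11), and genes of the DNA damage response and repair 1 of 47. This was Trp53bp1, which encodes 53BP1, a p53-binding repair factor, with a region at 35.3 in spleen and 33.2 in thymus (chr2:121257401-121257450).

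Counts for most lists of lymphocyte and immune genes were likewise low, as is the share of all coding genes, so they do not set those lists apart. T-cell genes had 0 of 47, cytokines, chemokines and their receptors 0 of 61, NF-kB and interferon genes 0 of 44, and B-cell genes 1 of 38, which was Ciita. Antigen receptor signalling had 3 of 49 (6.12%, against 0.749% of all coding genes). Ptprc, which encodes CD45, the phosphatase that activates Src kinases in lymphocytes, held a region at 25.7 in spleen and 19.0 in thymus (chr1:138136601-138136650). Nfatc3, a calcium-regulated transcription factor, held one at 13.5 in spleen and 59.4 in thymus (chr8:106069801-106069950). Csk, the kinase that holds Src kinases inactive, held one of spleen alone at 12.6 (chr9:57640601-57640650), and a region of liver alone lay 4850 bp from it. A count of 3 with no test does not set this list apart.

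Chromatin regulators had 1 of 57. Tet1, which encodes an enzyme that oxidises methylated cytosine, held a region at 23.8 in spleen and 53.3 in thymus (chr10:62851701-62851850). Myeloid and erythroid genes had 0 of 33, hepatocyte genes 0 of 46, stromal, endothelial and epithelial genes 0 of 26, housekeeping controls 0 of 25 and neuronal controls 0 of 30. Of the 603 genes of the 14 lists, 7 carried one of the regions.

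Genes of a few families are given together here. The families were grouped after the values were seen, so their shares stand above the 0.749% of all coding genes by that choice and get no test. Of 38 receptor and nonreceptor tyrosine phosphatase genes, 5 carried regions, namely Ptprc, Ptprj, Ptprk, Ptpn14 and Ptpn21, and 11 had a liver region. Ptprj, the phosphatase CD148, held 2, one in both lists (48.3 in spleen, 84.0 in thymus) and one in spleen alone (34.2). Of 22 cyclic nucleotide phosphodiesterase genes, 3 carried regions (Pde3b, Pde4d and the photoreceptor gene Pde6a), and 0 of the 22 had a liver region. Of 8 calcium- and calmodulin-dependent kinase genes, Camk4 and Camk1d did, and 2 had a liver region. In the cyclin D, retinoblastoma and E2F group of 16, regions lay in Ccnd3, in Tfdp2, an E2F partner (51.2 in spleen, 27.2 in thymus), and in Rb1, the retinoblastoma tumour suppressor (23.6 in spleen, 80.4 in thymus), and 6 had a liver region. Of 18 mbt-domain and chromobox genes, 3 did (Cbx7, L3mbtl3 and Scml4), and 8 had a liver region.

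Some regions absent from liver lay near each other. Within 100 kb of each other lay 14 pairs, 4 of them within 10 kb, and such pairs were not counted among other regions. Another listed region lay within 10 kb of 10.9% of the 265 regions and of 12.1% of all distinct regions. Close spacing was thus not particular to the regions absent from liver. The closest pair, 550 bp apart, lay inside Scml4, a Polycomb-related gene, at 32.1 and 17.5 in spleen and 45.5 and 75.4 in thymus. A pair 2350 bp apart lay inside Sag, the arrestin gene of photoreceptors, and the pair in the T-cell receptor beta locus was 4950 bp apart. At Sox4 the region that reached the promoter window lay 9750 bp from one in both lists, at 25.4 in spleen and 75.9 in thymus. Pdcd1lg2, which encodes PD-L2, a ligand of the inhibitory receptor PD-1, had a region inside the gene in spleen alone (59.1) and one 11169 bp outside it in both lists (28.0 in spleen, 38.1 in thymus). By chromosome, the share of all regions that were absent from liver ran, among the autosomes and X, from 3.05% on chromosome 17 to 9.88% on chromosome 10. On Y it was 2 of 7.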

How the data were processed

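Wild-type liver, spleen and thymus had 5 libraries each, whose labels name 1 region list per organ. The authors deposited these as headerless lists with a score per region. The score's scale, the caller, the aligner and any pooling were not given in the sources used here. The submitters' processing notes name mm10 as the build.

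Regions with identical coordinates were merged, and an overlap was 1 bp. Percentiles rank the authors' score within a list. Gene spans came from RefSeq GRCm38.p6, without strand or exons. A gene end could thus be the start or the end of a gene, and exons and introns were not told apart. Promoter windows and distances to transcription starts used annotated starts instead, and the windows carried a strand. Of 606 list entries 605 matched, 1 through a synonym. Gap and gene lengths were computed in Python 3.11.15 with pandas 2.3.3. Fisher's exact tests used scipy 1.17.1, with Benjamini-Hochberg adjustment over 3 tests at a threshold of 0.05. The choice of regions and the gene-end counts were checked on simulated regions, and the Fisher's exact tests were not. Intervals are exact (Clopper-Pearson, 95%; conditional for odds ratios) and cover counting error only. Regions are not replicates: p-values describe these lists, not other mice.

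Named regions were the 20 highest by mean percentile in both lists, the 6 highest of each list alone and the 10 highest at gene ends. The 5 lowest by mean percentile and every listed gene with a region within 5 kb were also named. Others were chosen after their values were seen. The regions and gene lists were chosen with earlier results of these data known. A planned half-site test over regions was not run, as no genome was used here.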

Additional observations from a re-analysis of the deposited data

How the results depend on the processing

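Of 27 alternative values, 16 kept their direction and call or moved little. Keeping only the higher-scoring 50% of a list, 156 of the regions remained above that limit in at least 1 lymphoid list and 32 in both. The gene-end share was 4.91% with ends taken within 500 bp, 15.8% within 2 kb and 3.77% with coding genes only, and the share outside genes was then 46.4%. Regions absent from liver were below regions of all 3 lists at gene ends in every alternative run (odds ratios 0.240 to 0.586), and the call was lost only among regions of at most 150 bp (0.586, adjusted exact p = 0.0909). The odds ratio of regions in both lymphoid lists against those in 1 turned to 2.31 in the upper 50% by score (Fisher's exact p = 0.692). The neighbour comparison turned to 1.15 within 5 kb and 1.07 within 50 kb; the main value was not past the threshold either. With windows of 50 kb, 430 coding genes had one of the regions. The causes were not tested. No paired analysis was possible because no values per library were used. For the same reason no replicate could be left out, and without a genome the half-site alternatives were not run. Depth is unknown, so absence from the liver list is absence of a call and not of binding. Presence in a list is likewise a call, and binding at the regions was not tested.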
